A study of Rattus norvegicus with 8 samples.

Results

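The genes examined were 10 of the blood vessel wall, chosen by name: the leukocyte adhesion genes *Icam1*, *Vcam1*, *Selp* and *Sele*, the vessel genes *Pecam1*, *Vwf* and *Tek*, and the barrier genes *Cldn5*, *Slc2a1* and *Ocln*. A probe was found for 9 of them among 15159 genes named on the array, and *Vwf* had no probe that could be matched. No gene was dropped for a low signal. Male F344 rats, an inbred strain that responds to day length, were held in a short-day photoperiod. All rats, each with a cannula in the third ventricle and tested with angiotensin, received all-trans retinoic acid (RA, 4 rats) or vehicle (4 rats) into that ventricle, and hypothalamic blocks that included the arcuate nuclei were taken a day later. The labels give the RA concentration as 1e-05 M with saline as the vehicle, whereas the study's methods give a higher concentration and a vehicle that also held DMSO, and the age of the rats is not given in the sources used here. RNA was hybridised with dye-swap to 8 two-colour arrays on 1 slide, on which arrays 1, 3, 6 and 8 carried RA in Cy5 and the others carried it in Cy3. Arrays 1 to 4 lay on slide row 1 and arrays 5 to 8 on slide row 2, with both dye orders in each row.

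Endothelial cells line blood vessels, and in the brain they form the blood-brain barrier. Selectins let passing leukocytes roll along the vessel, after which ICAM-1 and VCAM-1 hold them through integrins, and inflammatory cytokines acting through NF-κB are the classical inducers of these adhesion molecules. Barrier function rests on tight junction proteins such as claudin-5 and occludin, and on transporters such as the glucose carrier GLUT1, encoded by *Slc2a1*.

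The 250 bases upstream of the annotated start sites of 2 adhesion genes and 1 barrier gene are shown because *Icam1* is the member that passed the test, *Vcam1* is its partner in firm adhesion and *Cldn5* is the barrier gene furthest from 0. They are RefSeq sequences of the GRCr8 build, read 5′ to 3′ on the strand of the gene, at chr8:27829595-27829844 (plus strand) for *Icam1*, chr2:206742784-206743033 (minus strand) for *Vcam1* and chr11:95718599-95718848 (minus strand) for *Cldn5*. Capitals mark matches to the NF-κB-like motif GGNNNTTCC on either strand.
Icam1: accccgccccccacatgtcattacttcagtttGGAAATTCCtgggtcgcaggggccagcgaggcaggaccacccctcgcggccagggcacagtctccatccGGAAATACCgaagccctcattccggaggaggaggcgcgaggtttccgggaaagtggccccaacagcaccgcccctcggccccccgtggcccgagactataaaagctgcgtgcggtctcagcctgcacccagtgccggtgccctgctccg
Vcam1: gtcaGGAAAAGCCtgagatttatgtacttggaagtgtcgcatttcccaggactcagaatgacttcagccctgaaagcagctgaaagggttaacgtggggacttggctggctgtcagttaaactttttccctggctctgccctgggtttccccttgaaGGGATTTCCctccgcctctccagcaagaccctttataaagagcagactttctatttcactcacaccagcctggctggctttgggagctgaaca
Cldn5: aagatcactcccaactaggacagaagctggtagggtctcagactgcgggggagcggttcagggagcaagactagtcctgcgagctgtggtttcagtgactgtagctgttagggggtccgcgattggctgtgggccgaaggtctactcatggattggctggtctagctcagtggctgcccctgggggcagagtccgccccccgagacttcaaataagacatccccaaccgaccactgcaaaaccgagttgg

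The *Icam1* window held the motif at 2 places, beginning 218 bases (GGAAATTCC, read on both strands) and 149 bases (GGAAATACC) before the start site. The earliest annotated start of *Icam1* lies 157 bases before the site used for this window, so that the match at 149 lies downstream of that earlier start. The *Vcam1* window also held it at 2 places, 246 bases (GGAAAAGCC) and 93 bases (GGGATTTCC) upstream. No match was found in the *Cldn5* window. Windows existed for 6 of the 10 members, and those of *Slc2a1*, *Sele* and *Ocln* held no match either, the last 2 lying inside the annotated gene. Of 33469 rat promoter windows of this length, 15.4% held GGNNNTTCC. The letters TATAAA, found in 12.9% of all windows, began 53 bases upstream of *Icam1* and 60 bases upstream of *Vcam1*. The retinoid receptor half-site AGGTCA was in none of the 6 windows, against 14.1% of all windows. These are letter matches, and binding was not measured.

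*Icam1*, which encodes the ligand of leukocyte β2 integrins, was the only one of the 9 measured members that passed the threshold of the study's methods, an unadjusted p under 0.01. Among all named genes 4.31% passed it, 3.52% being higher and 0.792% lower after RA. None of the members, and none of the named genes, had an adjusted p under 0.05 in limma (0 of 15159, with 13.1% at an unadjusted p under 0.05). In the probe of *Icam1* the normalised log2 level after RA was 8.41, 8.44, 9.04, 8.61, 9.0, 10.01, 10.00 and 9.82 on arrays 1 to 8. In the vehicle channel of the same arrays it was 8.07, 8.17, 8.60, 8.23, 8.03, 9.23, 9.03 and 8.76. RA was thus the brighter channel on every array, while the 2 sets of levels overlapped between arrays. The log2 ratios of RA over vehicle were 0.34, 0.28, 0.43, 0.38, 0.97, 0.78, 0.97 and 1.06. Being above 0 on all 8 arrays was shared by 4.07% of the named genes. The log2 fold change of *Icam1* was 0.65 with a standard error of 0.12, a 1.57-fold increase, with a limma p of 0.000885 and an adjusted p of 0.227 over all probes. The mean log2 ratio was 0.65 in both dye orders. The 8 to 10 spots of this probe that entered each array's mean differed by an SD of 0.0662 to 0.143 on the log2 scale.

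*Vcam1*, the ligand of integrin α4β1, had log2 ratios of -0.13, 0.07, -0.06, 0.01, 0.41, 0.52, 0.38 and 0.34 on arrays 1 to 8. The ratios on slide row 1 lay around 0 and all 4 on slide row 2 were above them. Its log2 fold change was 0.19 (standard error 0.09), with a limma p of 0.0756 and an adjusted p of 0.519, so that no change was called over the 8 arrays. The probe was well above background in both channels on every array, and its log2 level ran from 10.65 to 11.63 after RA and from 10.24 to 11.22 in vehicle.

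*Sele*, which encodes the E-selectin of activated endothelium, had the widest spread of the members. The log2 ratios of its brightest probe were -0.21, 0.02, 0.41, 0.20, 1.10, 1.30, 1.41 and 1.56, again with every array of row 2 above every array of row 1. The probe was dim and present as a single spot. It was well above background after RA on arrays 3, 5, 6, 7 and 8, and in vehicle on array 7 alone. Its log2 fold change of 0.72 (standard error 0.24) had a limma p of 0.0183 and an adjusted p of 0.347, and did not pass the threshold. Because vehicle was near background on the other arrays, this value and the row values of *Sele* depend on the background correction, and the log2 fold change was 0.64 without any and 2.22 with plain subtraction. A second, dimmer probe of *Sele* had a log2 fold change of 0.16 and a limma p of 0.0479, and was well above background on 2 arrays after RA and on 0 in vehicle. The log2 fold change of *Sele* was 0.11 to 2.22 over the alternative settings. *Selp*, which encodes the P-selectin stored in endothelial cells and platelets, was not well above background in either channel on any array. Its log2 ratios of -0.13 to 0.15 are those of a probe at background and give no fold change of the gene.

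**Figure D1:**
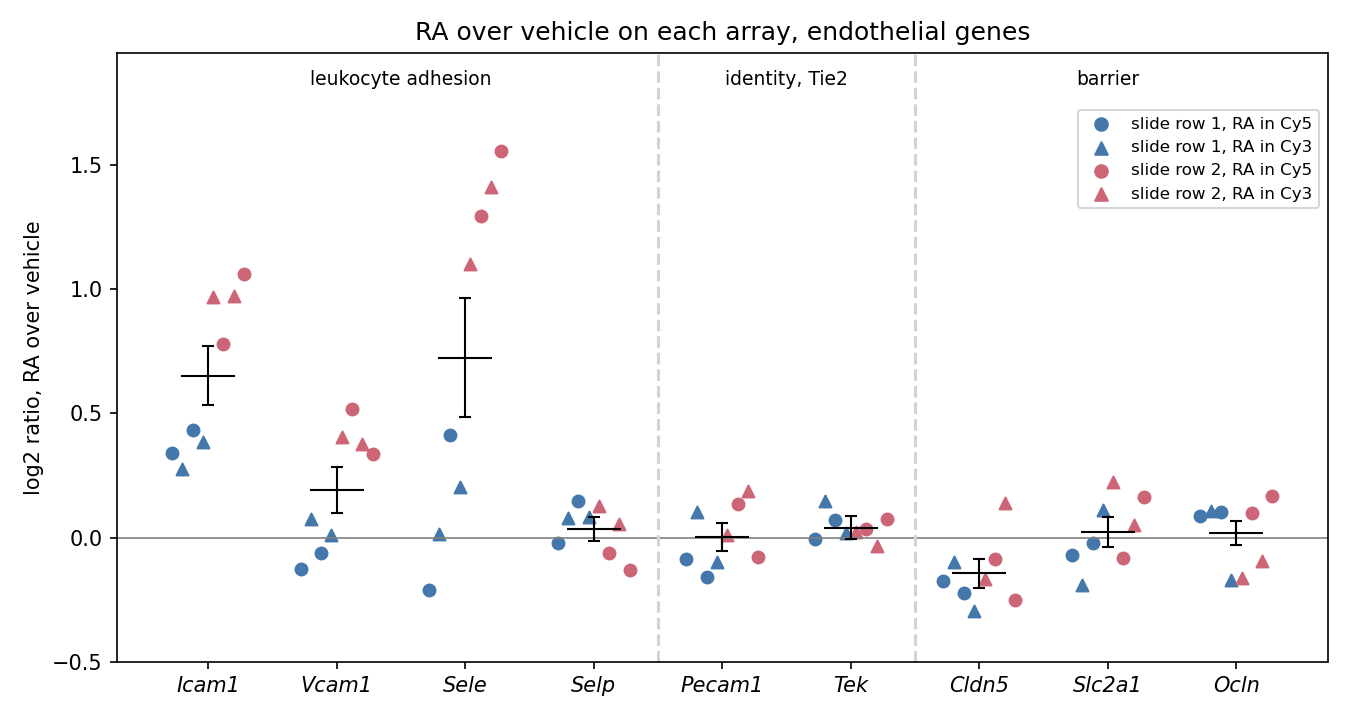
Log2 ratio of RA over vehicle for the 9 measured genes on each of the 8 arrays (points, array 1 to 8 from left to right within a gene, coloured by slide row and shaped by dye order), with the log2 fold change and its standard error from limma in black. *Icam1* lies above 0 on all 8 arrays, *Vcam1* and *Sele* are higher on row 2 than on row 1, and the vessel and barrier genes lie between -0.29 and 0.22.

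The vessel genes stayed close to 0. *Pecam1*, whose product PECAM-1 sits at the contacts between endothelial cells, had log2 ratios from -0.16 to 0.19 with a median of -0.03, and they were above 0 on 4 arrays and below 0 on the other 4. The log2 fold change was 0.00 (limma 95% interval -0.13 to 0.14, p of 0.969). *Tek*, which encodes the angiopoietin receptor Tie2, had log2 ratios from -0.04 to 0.15 and a log2 fold change of 0.04 (95% interval -0.06 to 0.15, limma p of 0.388). Its dim probe was well above background after RA on 4 arrays and in vehicle on 3, each time in the channel labelled with Cy5.

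Among the barrier genes, *Cldn5*, the main claudin of brain endothelium, had log2 ratios of -0.18, -0.10, -0.22, -0.29, -0.16, -0.08, 0.14 and -0.25 on arrays 1 to 8. Vehicle was the brighter channel on every array but array 7. The log2 fold change was -0.14 (standard error 0.06, 95% interval -0.28 to -0.01), with a limma p of 0.0423 and an adjusted p of 0.438, and it was not called. Without arrays 6 and 7 it was -0.20 with an unadjusted limma p of 0.00764. Over the 24 ways to pair all 8 arrays its limma p ran from 0.0083 to 0.0423, and the largest is the one used. *Slc2a1* had log2 ratios from -0.19 to 0.22 and a log2 fold change of 0.02 (95% interval -0.12 to 0.17, limma p of 0.71). *Ocln*, which encodes occludin, had ratios from -0.17 to 0.17 and a log2 fold change of 0.02 (95% interval -0.10 to 0.13, limma p of 0.731). The dye orders averaged 0.11 (RA in Cy5) and -0.08 (RA in Cy3), a difference with a limma p of 0.0387 and an adjusted p of 0.193. The intervals bound any change of *Pecam1*, *Slc2a1* and *Ocln* at a log2 value of 0.17.

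**Figure D2:**
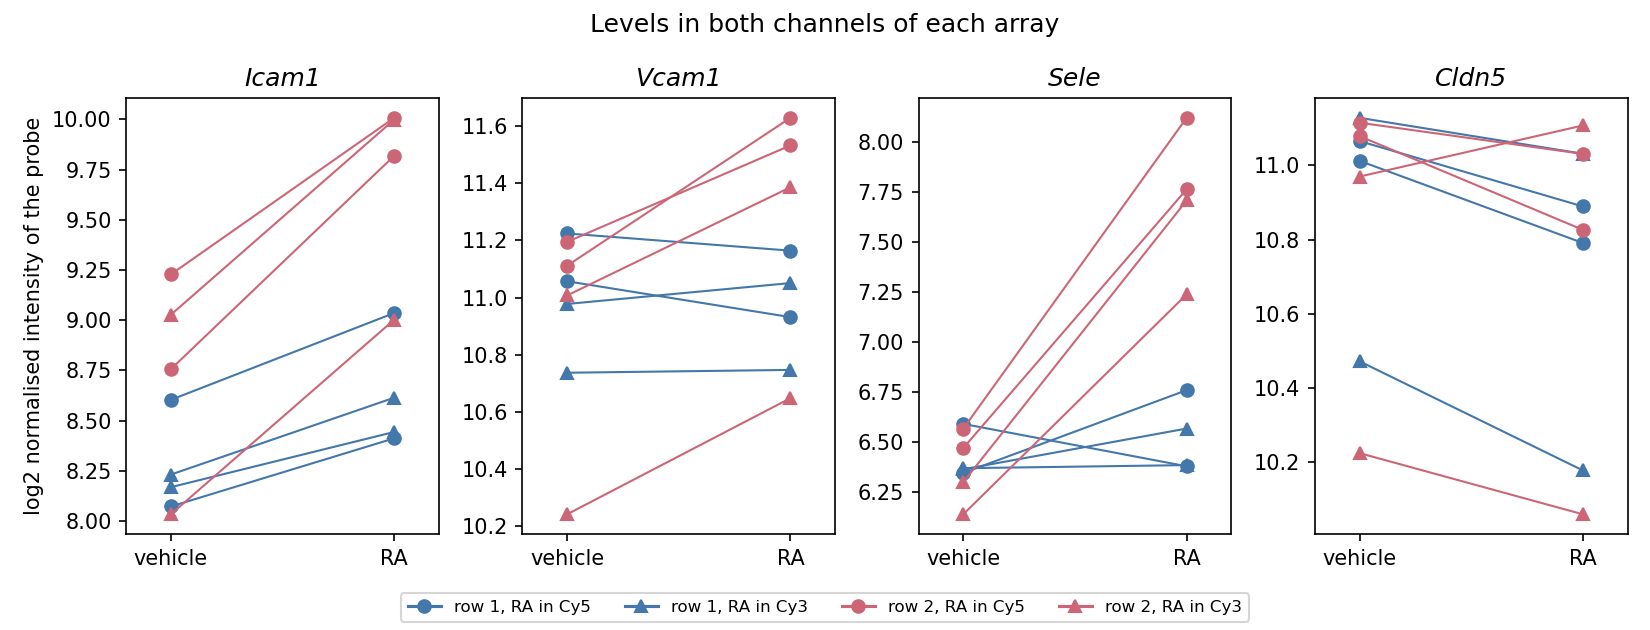
Normalised log2 intensity of 1 probe per gene in the vehicle and RA channels, with a line for each of the 8 arrays, coloured by slide row and shaped by dye order. The *Icam1* lines all climb from vehicle to RA, those of *Vcam1* and *Sele* climb on row 2, and 7 of the 8 *Cldn5* lines descend. Levels of different probes cannot be set against each other.

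The comparison asked of these genes was whether those that bind leukocytes moved apart from those that make the barrier. Per array, the mean log2 ratio of the 4 adhesion genes minus that of the 3 barrier genes was 0.05, 0.17, 0.28, 0.29, 0.68, 0.66, 0.67 and 0.68. The adhesion mean includes *Selp*, whose probe was at background. The difference was above 0 on every array, with a mean of 0.43, and it was larger on each array of row 2 than on any of row 1. Averaged by dye order it was 0.42 (RA in Cy5) and 0.45 (RA in Cy3). The adhesion mean was 0.40 ± 0.30 (SD, n = 8 arrays) and the barrier mean -0.03 ± 0.05, with a barrier range of -0.12 to 0.03. Left without the dim *Sele*, the difference averaged 0.33, and from *Icam1* and *Vcam1* alone it averaged 0.46. Each of these versions includes *Icam1*, the only called member. On array 1 *Icam1* at 0.34 was the only adhesion gene above 0, with *Vcam1* at -0.13, *Sele* at -0.21 and *Selp* at -0.02. *Icam1* was above the highest barrier gene on 8 of 8 arrays, *Sele* on 6, *Vcam1* on 4 and *Selp* on 1. No test was made of a mean over so few chosen genes.

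**Figure D3:**
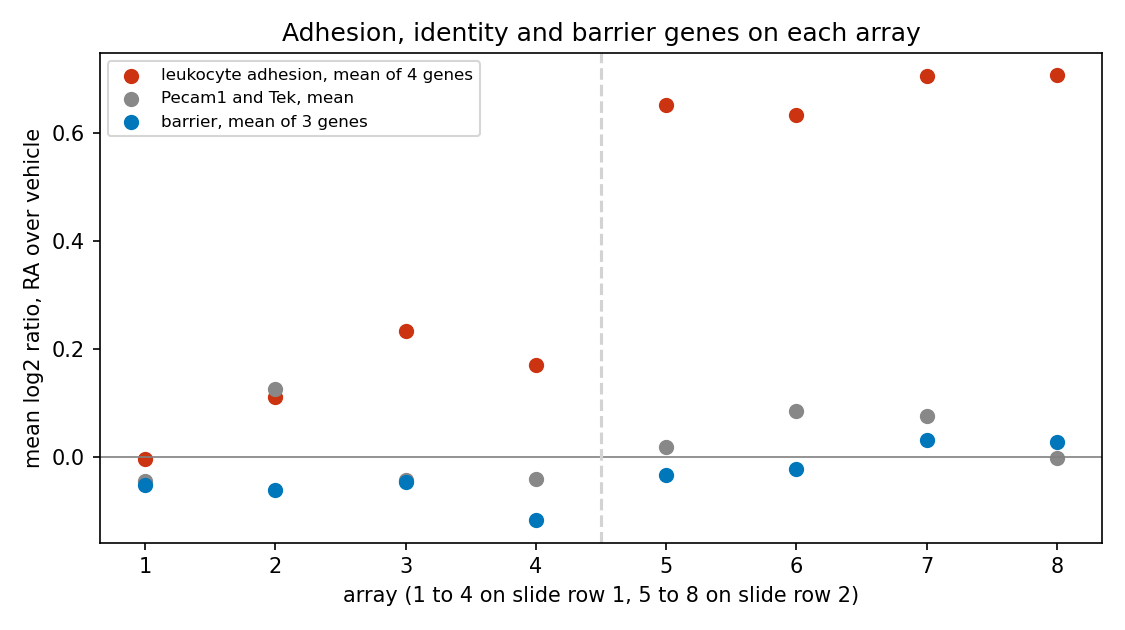
Mean log2 ratio of RA over vehicle per array for 4 leukocyte adhesion genes (red), *Pecam1* and *Tek* (grey) and 3 barrier genes (blue). The red points reach 0.63 to 0.71 on arrays 5 to 8 and lie between -0.0049 and 0.23 on arrays 1 to 4, while the blue points stay between -0.12 and 0.03.

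*Icam1*, *Vcam1* and *Sele* had higher log2 ratios on slide row 2, whereas the mean log2 ratios of the dye orders (RA in Cy5, then RA in Cy3) were 0.65 and 0.65 for *Icam1*, 0.17 and 0.22 for *Vcam1*, and 0.76 and 0.68 for *Sele*. The mean log2 ratio was 0.36 on row 1 and 0.95 on row 2 for *Icam1*, -0.03 and 0.41 for *Vcam1*, and 0.11 and 1.34 for *Sele*. The background-level probe of *Selp* averaged 0.07 and -0.0022. All arrays of row 2 lay above all of row 1 for these 3 genes, a pattern shared by 5.3% of the named genes. In limma the row difference had a p of 0.000799 for *Icam1*, 0.00244 for *Vcam1* and 7.75e-05 for *Sele*, with adjusted p of 0.158, 0.252 and 0.0662, against 3.01% of named genes at a p under 0.01. No row difference of a member therefore had an adjusted p under 0.05. None of the 3 barrier members was separated by row. Of 17 further barrier transporters and vesicle regulators, 2 had all arrays of row 2 above all of row 1 and 2 had them all below. Among the 15159 named genes these counts were 803 and 323. With row 1 alone *Icam1* was 0.36 (limma p of 0.000485) and with row 2 alone it was 0.95 (limma p of 2.51e-05), so that it passed the threshold within each row. *Vcam1* and *Sele* passed on row 2 alone, with limma p of 0.0021 and 2.21e-06. The sources used here do not say which rats were on which row, so that a row and the rats on it cannot be told apart. Each fit on 1 row rests on 4 arrays and on an unstated number of rats. A small p within a row is therefore no measure of the spread between rats.

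The p value of *Icam1* depended on which arrays share RNA, which is not stated. Its limma p ran from 7.43e-08 to 0.000885 over the 24 possible pairings of 1 array from each dye order. The log2 ratios of *Ttr* were alike on arrays 1 and 2 (1.76 and 1.74) and on 3 and 4 (0.73 and 0.57). They were also alike on arrays 5 and 8 (1.21 and 1.37) and on 6 and 7 (-4.48 and -5.11). Those of *Agrp* were -1.11 and -1.04 on arrays 5 and 8. The pairing of these arrays called 1081 probes, the fewest of the 24. Whether they share RNA was not tested. Flipping the signs of the 4 pair means of *Icam1* in an exact permutation test, two-sided, gave p = 0.125 whatever the pairing, and 4 pairs can give no smaller p. These p values measure the spread between these arrays.

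Leukocyte counter-receptors, the molecules with which leukocytes grip the adhesion genes' products, gave 3 higher and 0 lower calls among 9 measured genes. The share called higher over all named genes was 3.52%. This list had 0 calls with plain background subtraction and 0 with Agilent's log ratio, and 2 to 5 in the fits that left out 2 arrays. Single values given for list genes are log2 fold changes of RA over vehicle. The median of this list was 0.38, against -0.0047 over all named genes. *Itgam* and *Itgb2*, which together form the Mac-1 integrin that binds ICAM-1, had log2 fold changes of 0.87 and 0.77. The log2 ratios of *Itgam* were 0.31, 0.55, 0.64, 0.18, 1.30, 1.28, 1.33 and 1.34 on arrays 1 to 8, all above 0 and higher on row 2. *Cd44*, a receptor for hyaluronan that also binds E-selectin, was at 0.84. *Itgb7* was at 0.46 (limma p of 0.0243), and *Itgal*, the partner of *Itgb2* in LFA-1, was not called (limma p of 0.0136, adjusted p of 0.326). The probe of *Itgal* was well above background on 3 arrays after RA and on 0 in vehicle. Its measured mean level was at least 1.22-fold higher after RA, a bound that leaves out the spread between arrays. The bound raises vehicle to at least the dimmest signal that was well above background and leaves RA as measured.

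Enzymes that build the sugar ligands of selectins had 1 call among 7 measured genes, *B4galt1* at 0.31, with a median of 0.13. This list had no call (0) without background correction, with plain subtraction, Agilent's ratio, the deposited values, bright probes alone, the mean over all probes of a gene, row 1 alone or some of the fits that left out 2 arrays. *St3gal6* at 0.26 and *Fut7* at 0.14 did not pass. Of 15 other endothelial adhesion and junctional passage genes 0 were called (limma, 2 at an unadjusted p under 0.05), with a median of 0.00. Among all named genes 4.31% were called. The junctional adhesion molecule *Jam2* was at -0.20 (limma p of 0.014) and the amine oxidase *Aoc3* (VAP-1) at -0.22 (limma p of 0.397). *Pvr*, named after its values were seen, was at 0.16 (limma p of 0.0162). Of the 15 genes, 8 lay above 0 and 7 below.

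Further barrier genes gave no call in the main fit, but with 4.31% of all named genes called, lists of this size can hold none by their size alone. For the transporters and vesicle regulators the count changed in 20 alternative settings and stayed the same in 15. It was 2 after scaling between arrays and 0 to 3 in the fits that left out 2 arrays. For the junction genes the count changed in 1 setting and stayed the same in 34. Of 16 other tight and adherens junction genes 0 passed, either at the methods' threshold or at a limma p under 0.05, and their median was -0.02. Within this list *Tjp3* at 0.15 and *Cldn1* at -0.14 were furthest from 0, and *Cdh5*, which encodes VE-cadherin, was at -0.01 (limma p of 0.887). Of 17 transporters and vesicle regulators 0 passed in limma (4 at a p under 0.05, against 13.1% of all named genes), with a median of -0.04. Of these 4, 2 had log2 fold changes above 0 and 2 below. The glutamine carrier gene *Slc38a5* had log2 ratios of 0.04, 0.30, 0.20, 0.33, 0.36, 1.16, 1.16 and 0.61, all above 0, with a log2 fold change of 0.52 (limma p of 0.0104). The lactate carrier gene *Slc16a1*, whose product is MCT1, was at 0.38 (limma p of 0.0136) and above 0 on 6 arrays. The others, named after their values were seen, were *Slco1c1* at -0.22 (limma p of 0.0216) and *Mfsd2a* at -0.12 (limma p of 0.0374), whose ratios were below 0 on 7 and 8 arrays. The angiopoietin and VEGF genes gave 0 calls among 14 (limma, 4 at a p under 0.05), with *Pgf* at 0.21, *Nrp1* at 0.20, *Flt1* at -0.02 and a median of 0.00. Lower at a p under 0.05, and named after their values were seen, were *Flt4* at -0.14 (limma p of 0.0175) and *Angpt1* at -0.17 (limma p of 0.0252). Among 12 haemostasis genes *Cd63*, a membrane protein of Weibel-Palade bodies and lysosomes, was called at 0.34. This list too had no call (0) in the settings named for the selectin ligand enzymes, except that it had 1 without background correction. The endothelial protein C receptor gene *Procr* was at 0.15 and did not pass.

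A list of inducing cytokines, cytokine receptors, NF-κB genes and *Irf1* gave 5 higher and 0 lower calls among 12 measured genes, with a median of 0.35. Among all named genes 3.52% were called higher. Of the cytokine genes, *Il1a* at 0.24 did not pass (limma p of 0.0989). *Il6* and *Ifng* were not well above background in either channel on any array. These 3 were named after their values were seen. *Tnf* had log2 ratios of 0.23, 0.18, 0.84, 0.84, 0.77, 1.29, 1.03 and 1.37 and a log2 fold change of 0.82 (standard error 0.14, limma p of 0.000669). The TNF receptor genes *Tnfrsf1a* and *Tnfrsf1b* were at 0.56 and 0.71, and *Nfkb2*, which encodes an NF-κB subunit, at 0.38. The remaining call was *Il1b* at 1.30, which is named because it completes the count and was chosen after its values were seen. *Irf1* at 0.77 (limma p of 0.0212) and the NF-κB inhibitor gene *Nfkbia* at 0.33 (limma p of 0.0428) did not pass. The median of this list was 0.10 to 0.16 on arrays 1 to 4 and 0.49 to 0.78 on arrays 5 to 8. In 5 of the 12 genes every array of row 2 lay above every array of row 1, against 5.3% of all named genes. *Tnf* was not among these 5. Without arrays 8 and 5 only 1 of the 12 was called.

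**Figure D4:**
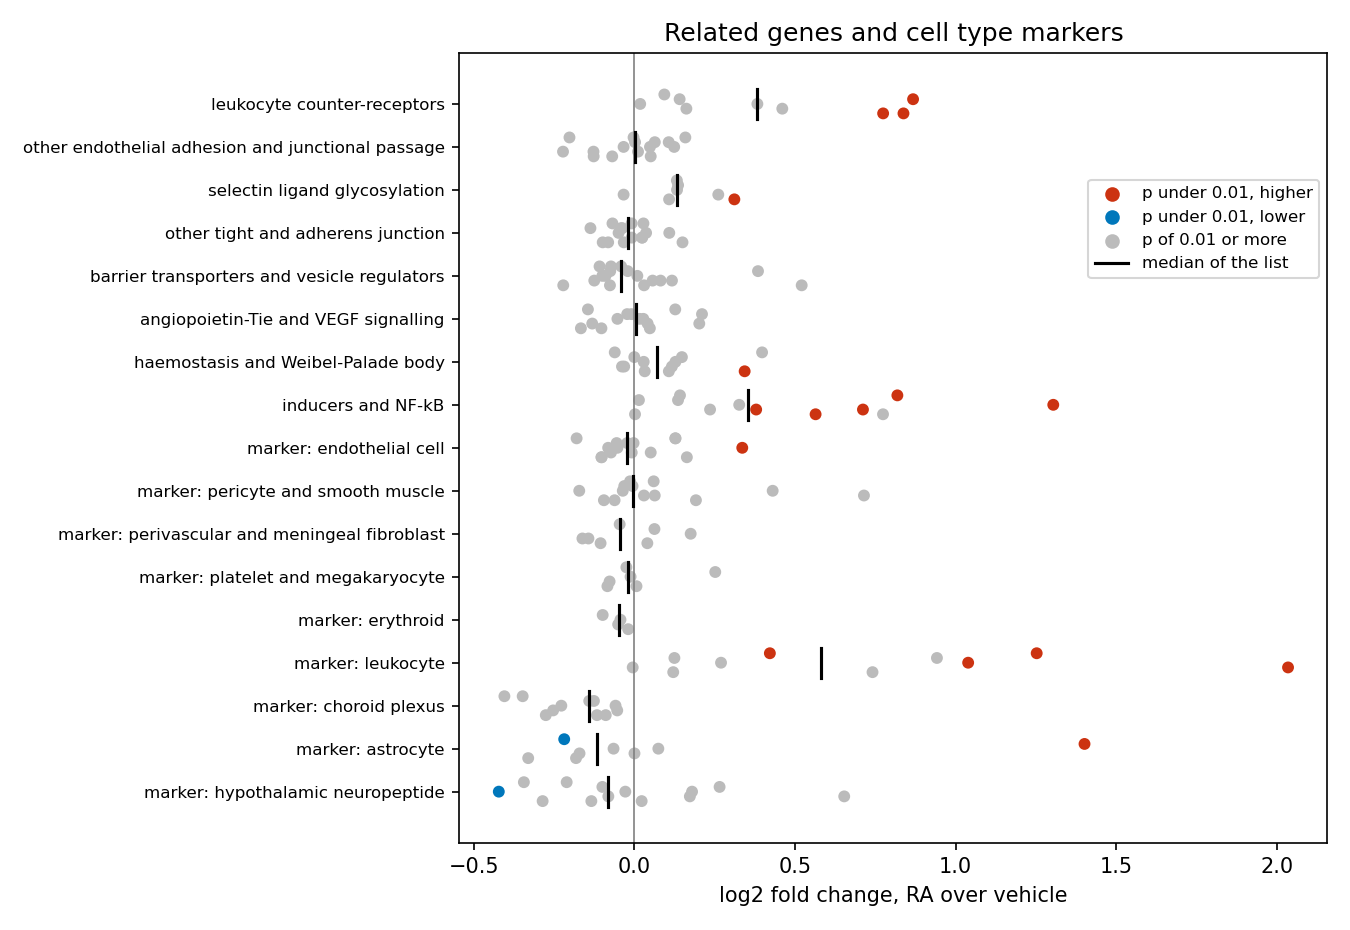
Log2 fold change of RA over vehicle for each measured gene (points) of 8 related lists and 9 lists of cell type markers, with the median of each list as a bar. Red points passed a limma p under 0.01 as higher, blue points as lower, and grey points did not pass. The counter-receptor, inducer with NF-κB, and leukocyte lists have medians of 0.38, 0.35 and 0.58, and those of the junction and endothelial lists lie near 0.

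In blocks of whole tissue, fewer cells of a type and less RNA per cell cannot be told apart. Endothelial markers were present, with 14 of 15 measured genes well above background on all arrays in at least 1 of the groups, and gave 1 call, the transcription factor gene *Fli1* at 0.34. Their median was -0.02, with *Itm2a* at -0.18, *Cd93* at 0.16, *Cdh5* at -0.01 and *Flt1* at -0.02. Their summed log2 level was 12.84 to 13.56 after RA and 12.86 to 13.53 in vehicle. Leukocyte markers moved with the adhesion genes. Of 10 measured, 4 were called higher and 0 lower, with a median of 0.58, and their summed log2 level was 10.67 to 13.40 after RA and 10.25 to 11.38 in vehicle. *Ptprc*, which encodes CD45, had log2 ratios of 0.39 to 0.61 on row 1 and of 1.32 to 1.83 on row 2, with a log2 fold change of 1.04. *Plac8* was at 2.03, *S100a9* at 1.25 and *Csf3r* at 0.42, whereas *S100a8* at 0.94 and *Ly6c* at 0.74 did not pass. The part of these cells in the ratios of *Icam1*, *Vcam1* and *Sele* was not tested.

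Markers of the platelet (0 of 6), red cell (0 of 4), fibroblast (0 of 7) and mural cell (0 of 13) lists gave no call in limma, with 3 mural genes at a p under 0.05. With 4.31% of all named genes called, such short lists can hold none by their size alone. *Pf4*, a defining platelet gene, was at 0.25 (limma p of 0.25), and *Tagln* and *Anpep* of the mural list were at 0.71 and 0.43. The third mural gene at a p under 0.05, named after its values were seen, was *Vtn* at -0.17 (limma p of 0.0372). The mural list had 6 genes above 0 and 7 below, with a median of -0.0058. The astrocyte list gave *Gfap* at 1.40 as higher and *Gja1* at -0.22 as lower among 8. In the neuropeptide list *Cartpt* at -0.42 was the single call among 13, with *Avp* at 0.65 and *Ghrh* at -0.34 not passing. Of 11 choroid plexus markers 0 were called (limma, 0 at a p under 0.05), with a median of -0.14 and with *Sostdc1* at -0.40 and *Kcnj13* at -0.35. Genes of restricted regions stood apart on some arrays. *Ttr*, a gene of the choroid plexus, was far lower after RA on arrays 6 and 7, at -4.48 and -5.11, than on the remaining 6, where its log2 ratio ran from 0.57 to 1.76. *Agrp*, a gene of the arcuate nucleus, was at -1.11 and -1.04 on arrays 5 and 8, while its ratios elsewhere ran from -0.09 to 0.05. Without arrays 6 and 7 the log2 fold change of *Icam1* was 0.58 (limma p of 0.00512) and without arrays 8 and 5 it was 0.53 (limma p of 0.00312). The corresponding values were 0.11 and 0.13 for *Vcam1* and 0.51 and 0.52 for *Sele*, and the adhesion minus barrier difference was 0.36 and 0.35.

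The named genes whose ratios lay closest to those of *Icam1* over the 8 arrays were *Cmtm7*, *Psmb10* and *F10*, with mean absolute differences of 0.10, 0.11 and 0.11 on the log2 scale. They were chosen from 9462 genes well above background in both channels on all arrays. For *Vcam1* the closest were *Fen1*, *Hnrnpab* and *Carhsp1* (0.05, 0.05 and 0.06), and for *Cldn5* they were *Rhov*, *Wipi1* and *Clcn3* (0.05, 0.06 and 0.06). These are measures of likeness with no test.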

How the data were processed

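Hypothalamic RNA was measured on 8 two-colour arrays of 1 Agilent slide. The members, gene lists and tests were chosen with earlier results of these data known. The authors deposited scanner output (Feature Extraction 10.7.3.1) in which every spot has a linear intensity in both channels and Agilent's own log10 ratio. A series table of log2 ratios, normalised by the authors, was deposited too. Each of its columns correlated at 0.985 to 1.00 (across probes) with RA over vehicle computed here without background correction, a setting other than the main one. Agilent's marks for background and outliers, other values deposited per spot, were used as flags. The study's methods name limma, loess and the dye-swap as a block.

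With R 4.3.3 and limma 3.58.1, median spot signals were corrected by normexp (offset 50), control spots were dropped, outlier-marked spots (0.913% to 2.42% per array) left out, loess was applied within arrays, and spots of a probe were averaged. Between 57.4% and 74.6% of probes were well above background per array and channel. Each of 30367 probes entered limma as 4 averages, each over 1 array of either dye order. There are 24 ways to pair the arrays, and the fit with the largest p is the one given, since which arrays share RNA is not stated. Benjamini-Hochberg adjustment covered all probes. Differences between slide rows were fitted on pairs within a row, and those between dye orders on 8 arrays as independent, which makes p too small where RNA is shared. The test was checked on simulated data. The number of arrays limits the precision.

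Accessions were matched to RefSeq genes of GRCr8, which named 18006 probes, and the brightest probe stood for a gene. The text names every member, from each list up to 4 called genes with the smallest p and up to 2 not called with the largest log2 fold change, *Cdh5*, *Flt1*, *Pf4*, *Ttr* and *Agrp*, and 3 genes most like each of *Icam1*, *Vcam1* and *Cldn5*. A gene that this rule names is not reported here. Alternatives were other background corrections, Agilent's ratio, the deposited values, scaling between arrays, bright probes, outlier spots kept, other models and pairings, single dye orders, slide rows, all probes of a gene and 16 pairs of arrays left out. Differences without *Sele*, or from *Icam1* and *Vcam1* alone, were chosen after seeing the data.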

Additional observations from a re-analysis of the deposited data

How the results depend on the processing

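*Icam1* stayed above 0 in every alternative fitted for it and kept an unadjusted limma p under 0.01 in 34 of 35, the exception being Agilent's log ratio (0.76, p of 0.013). Over the 16 fits that each left out 1 array of either dye order, its log2 fold change was 0.53 to 0.77 and it was called in all of them. *Vcam1* was called in 3 of 35 alternatives, *Sele* in 9 of 34 and *Cldn5* in 1 of 35.

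With plain background subtraction 237 probes and 2 genes of the related lists were called, and the adhesion minus barrier difference was 0.82. With Agilent's log ratio the counts were 330 probes, 0 members and 2 list genes (limma, *Icam1* at a p of 0.013 and *Cldn5* at 0.0246), with a difference of 0.85. With the pairs as a random block they were 1774 probes, 2 members and 19 list genes, with 8 independent arrays 2481, 2 and 24, and 3142, 3 and 29 for whichever pairing gave most. Slide row as a block gave 1595, 3 and 18, and row 2 alone gave 3 members and 20 list genes. Arrays with RA in Cy5 alone called 2161 probes and those with RA in Cy3 alone 2317. The fits that left out 2 arrays called 455 to 1111 probes, 1 to 2 members and 4 to 15 list genes, the lowest probe and list counts coming without arrays 8 and 5, and gave a difference of 0.35 to 0.54. The cause of these shifts was not tested.

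Members near 0 changed sign. *Selp*, a probe at background, was at -0.066 with plain subtraction, -0.016 with RA in Cy5 alone and -0.0022 on row 2. *Pecam1* was at -0.11 with Agilent's log ratio, -0.0061 after scaling between arrays, -0.046 with RA in Cy5 alone and -0.060 on row 1. *Ocln* was at -0.035 with Agilent's log ratio and -0.080 with RA in Cy3 alone, *Slc2a1* at -0.0018 with RA in Cy5 alone and -0.043 on row 1, and *Vcam1* at -0.026 on row 1. Leaving out 2 arrays gave -0.050 to 0.046 for *Pecam1*, -0.033 to 0.077 for *Slc2a1* and -0.023 to 0.037 for *Ocln*. Dim probes limited *Sele*, *Selp* and *Tek*.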
